A study of Mus musculus with 94 samples.

Results

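The values below concern 100 probes of a whole transcriptome panel, of 20175 in all, that were at their lowest in tubular segments of vehicle-treated mouse kidneys on day 14 after ischemia-reperfusion injury (IRI) and that were higher, on average, in the medulla than in the cortex. They were selected on those same values. Counts were summed over the regions of a section, scaled to a total of 1000000 counts (CPM) and written as log2(CPM + 1). A probe was kept when its mean in the vehicle-treated sections on day 14 lay at least 0.75 below the mean of the control sections, when that difference was lower than those on days 1 and 7, and when its mean difference between cortex and medulla over 14 sections was 0 or less. The first condition held for 704 probes, the second for 660 of these and the third for 105 after 3 probes had been set aside by name. The limit of 100 took those with the lowest day 14 difference. The differences of vehicle-treated from control tubules and between cortex and medulla of tubules are therefore a description of what was selected, and no test is given for them.

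For digital spatial profiling, probes for the mouse transcriptome were bound to kidney sections, their barcodes were released by UV light from chosen segments, and the barcodes were counted by sequencing. Male C57BL/6 mice had received the spleen tyrosine kinase (SYK) inhibitor entospletinib or its vehicle before unilateral IRI, and kidneys were taken on days 1, 7, and 14. Per the study's methods, mice of day 1 had this injection alone, and entospletinib was given again each day up to day 7 and on alternate days after it, so that time after injury and the number of doses cannot be told apart. The 7 groups were the control (CTRL), vehicle on the 3 days (I1V, I7V, and I14V) and entospletinib on the 3 days (I1E, I7E, and I14E). Control kidneys are contralateral uninjured kidneys per the labels, whereas the methods of the study also allow kidneys of healthy mice, and it is not given which the control sections are. An uninjured kidney opposite an injured kidney shares its circulation, and no label gives a sham operation or the age of the mice. Each group had 2 sections, told apart by the label prefixes E1 and E2 and called sections 1 and 2 here, and the design gives 2 mice per condition and time point. Segments positive for pan-cytokeratin (PanCK) are called tubules and those positive for IBA1 are called macrophage segments, as the stains name them.

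The renal medulla holds the straight parts of the nephron, the loops of Henle and the collecting ducts, together with the vessels that run beside them. Its outer part works close to the limit of its oxygen supply, since the thick ascending limb pumps salt at a high rate while blood flow is low, and ischemia injures straight tubule segments there. The distal nephron and the collecting duct stain more strongly for cytokeratins than the proximal tubule. The files give each probe as an identifier without a gene, so none of the 100 probes could be assigned to a segment of the nephron, a pathway or a cell type, the words "medulla" and "tubule" stand for the region and stain of the labels only, and no marker could be used to check them.

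In tubules a section held 9404235 to 25729550 counts, and each of the 100 probes had at least 99 counts in every section. Macrophage segments were much thinner, with 117693 to 2773456 counts per section, and 6 of the 100 probes had a section with 0 counts there. The 100 probes were abundant on the panel. Their mean level over the tubular sums ranged from 14.0 to 1890 CPM with a median of 78.0 CPM, against a median of 24.9 CPM for all probes, and 89 of the 100 lay above that median. The shares among all probes given below are not matched for abundance, and probes with few counts are harder to call.

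In tubules, the level of the 100 probes was highest in control section 1 and lowest in the vehicle-treated sections on day 14. Their median was 162 CPM in control section 1 and 67.8 CPM in control section 2. It was 52.7 and 56.1 CPM in the vehicle-treated sections on day 1, 48.7 and 53.8 CPM on day 7, and 41.4 and 36.3 CPM on day 14. Vehicle-treated sections of all 3 days lay below both controls, and the sections of the same day lay close together. With entospletinib the medians were 80.4 and 50.7 CPM on day 1, 114 and 71.2 CPM on day 7, and 153 and 103 CPM on day 14. Both entospletinib sections on day 14 thus lay between the control sections, and the median of all probes stayed between 19.2 and 29.0 CPM in every section. In these segments fewer cells of a type and less RNA per cell cannot be told apart.

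**Figure D1:**
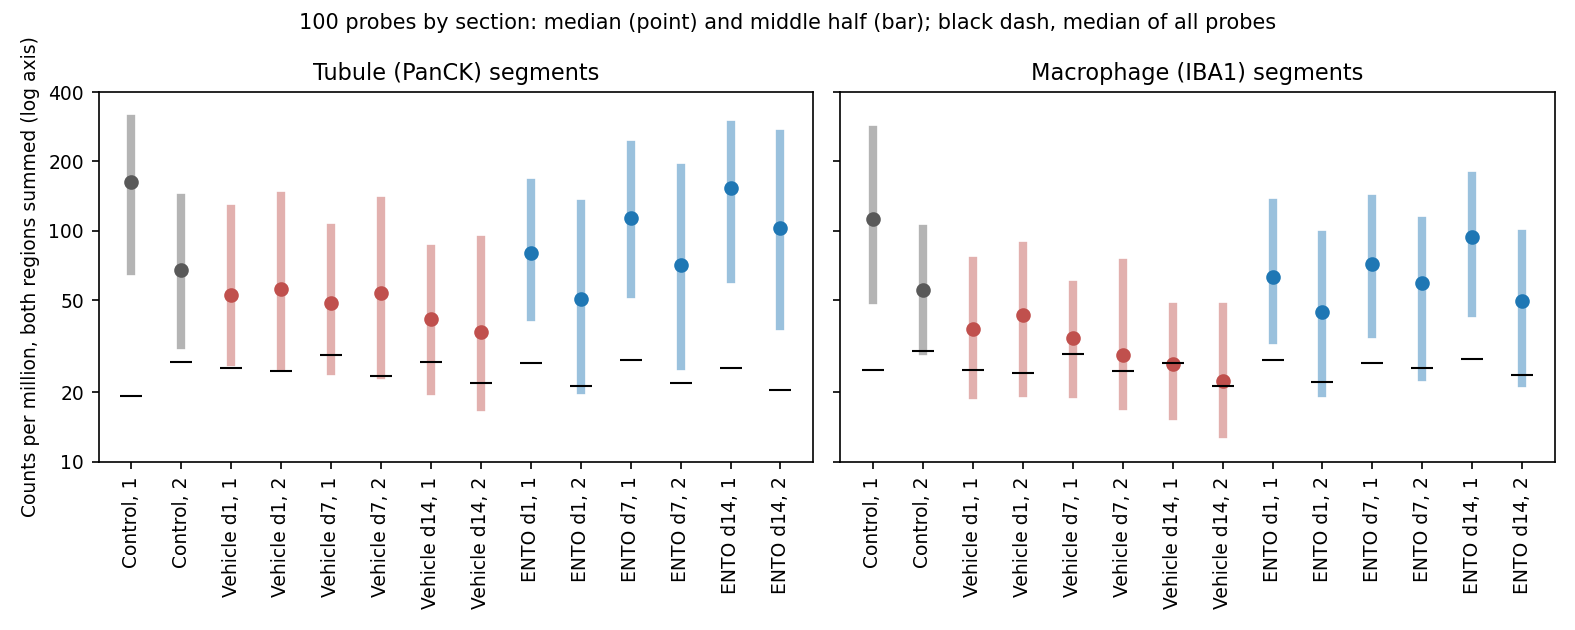
Level of the 100 probes in each section, in tubule segments (left) and macrophage segments (right), in CPM on a log axis. Points are medians over the 100 probes, bars run from the lower to the upper quartile, and black dashes mark the median of all 20175 probes. The names on the horizontal axis give the group and section, with ENTO for entospletinib. The medians are lowest in vehicle-treated sections on day 14 in both kinds of segment and highest in control section 1.

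The day 14 difference of vehicle-treated from control tubules, which chose the probes, ranged from -2.71 to -0.78 with a median of -1.10 on the log2 scale. It was -2 or lower for 11 probes, between -2 and -1.5 for 13, between -1.5 and -1 for 37, and above -1 for 39. The differences on days 1 and 7 had medians of -0.71 and -0.74. On day 1 the difference was below 0 for 96 of the 100 probes, and 44 were at or below -0.75. RTS0078255 was the clearest exception, at 0.89 on day 1 and -0.83 on day 14. Both vehicle-treated sections lay below both control sections for 64 of the 100 probes on day 1, 62 on day 7, and 90 on day 14, while the share among all probes was 9.08%, 8.87%, and 12.2%. These counts follow from the selection.

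The 10 probes with the lowest day 14 difference differed in how their levels were spread over sections. RTS0067356, the lowest, had 1046 and 391 CPM in the control sections, 201 and 70.0 CPM in vehicle-treated tubules on day 1, 174 and 241 CPM on day 7, and 115 and 81.4 CPM on day 14. With entospletinib it had 427 and 102 CPM on day 1, 1114 and 365 CPM on day 7, and 1154 and 329 CPM on day 14. Section 1 was the higher in the control and in each entospletinib group, and the vehicle-treated sections on day 14 were below every control and entospletinib section except section 2 on day 1, at 102 CPM, which lay between them.

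RTS0064925 had 277 and 109 CPM in the control tubules. Vehicle-treated sections had 46.4 and 254 CPM on day 1, 15.2 and 64.0 CPM on day 7, and 17.5 and 48.2 CPM on day 14. Entospletinib sections had 163 and 136 CPM on day 1 and 286 and 505 CPM on day 14. Here the later vehicle-treated sections were low and the 2 sections of day 1 stood far apart.

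RTS0063849 and RTS0071079 were high in control section 1 and not in control section 2. RTS0063849 had 270 and 13.9 CPM in the control sections and 9.7 to 15.1 CPM in the 6 vehicle-treated sections. Control section 2 therefore lay inside the range of the vehicle-treated sections. These 7 sections were each below the median of all probes, which was 19.2 to 29.0 CPM over the sections, and background was not removed. The size of a fall to such levels is therefore uncertain. With entospletinib RTS0063849 had 52.3, 178, and 225 CPM in section 1 on days 1, 7, and 14, and 12.0, 9.7, and 30.2 CPM in section 2. RTS0071079 had 1258 and 80.5 CPM in the control sections, 47.5 and 119 CPM in vehicle-treated tubules on day 14, and 996 and 529 CPM in entospletinib tubules on day 14. RTS0062174 followed the same pattern in the controls, with 229 and 23.7 CPM, and had 14.6 and 12.6 CPM with vehicle on day 14 but no more than 70.8 CPM in any entospletinib section. Its control section 2 and its vehicle-treated sections on day 14 were also below the median of all probes.

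RTS0076867 was the opposite case, since its control sections were close, at 304 and 248 CPM. It had 164 and 154 CPM with vehicle on day 1, 143 and 192 CPM on day 7, and 53.8 and 73.7 CPM on day 14. Entospletinib sections on day 14 had 464 and 242 CPM. The vehicle-treated sections thus lay below the controls on every day and lowest on day 14, without overlap between days 7 and 14.

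RTS0063347, RTS0075365, RTS0062877, and RTS0061551 complete the 10. RTS0063347 had 701 and 331 CPM in the controls and 111 and 79.5 CPM with vehicle on day 14, and its entospletinib sections on day 14 stood at 656 and 42.3 CPM, on either side of the vehicle-treated pair. RTS0075365 had 414 and 123 CPM in the controls and 56.9 and 39.4 CPM with vehicle on day 14. RTS0062877 had 227 and 96.8 CPM in the controls, 22.9 and 45.9 CPM with vehicle on day 14, and 159 and 214 CPM with entospletinib on day 14. RTS0061551 had 341 and 63.9 CPM in the controls and 30.6 and 37.6 CPM with vehicle on day 14.

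**Figure D2:**
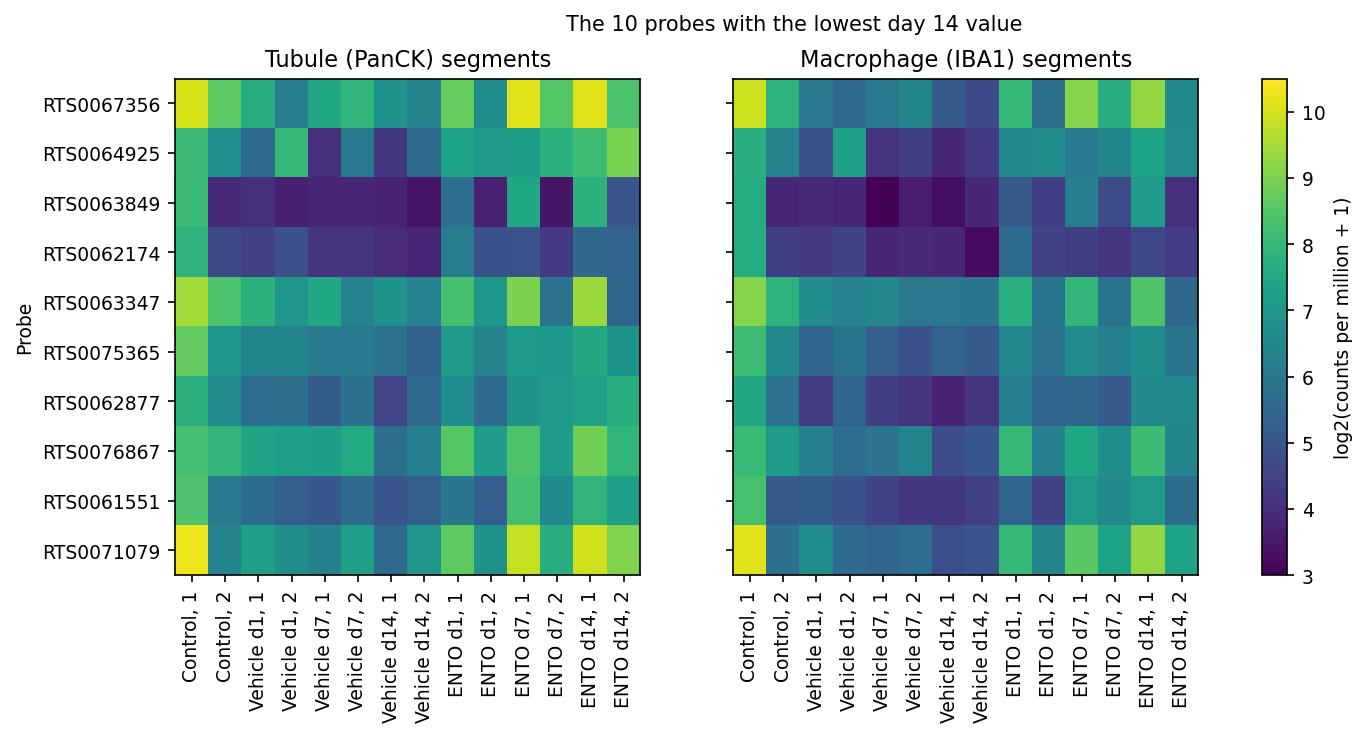
The 10 probes with the lowest day 14 difference, in rows, across the 14 sections, in columns, for tubule segments (left) and macrophage segments (right). Color gives log2(CPM + 1). Control section 1 and section 1 of the entospletinib groups on days 7 and 14 hold most of the bright cells, and most vehicle-treated cells are dark in both kinds of segment.

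The limit of 100 fell in a dense part of the list. The last probes inside were RTS0066039 and RTS0078548, with day 14 differences of -0.78 each, and the first outside were RTS0067141 and RTS0070821, with -0.78 and -0.77. RTS0078548 had 325 and 129 CPM in the controls and 100 and 141 CPM with vehicle on day 14, so that control section 2 lay between the vehicle-treated sections. RTS0066039 had 130 and 62.3 CPM in the controls and 50.6 and 53.2 CPM with vehicle on day 14.

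In tubules the control sections differed over these probes more than the sections of any other group. Control section 1 was above control section 2 for 97 of the 100 probes, by a median of 0.95 on the log2 scale, whereas the median of all probes was -0.37. It was at least 2-fold higher for 45 of the 100 and at least 4-fold higher for 15, and 0.773% of all probes were at least 2-fold higher. The mean of the control sections helped choose the probes, so a high level in either control section alone favored selection. These counts are therefore a description. In the vehicle-treated groups the median difference between sections 1 and 2 was 0.06, -0.21, and -0.01 on days 1, 7, and 14. In the entospletinib groups it was 0.49, 0.46, and 0.34.

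The 15 probes with a control difference of 4-fold or more had medians of 287 CPM in control section 1 and 63.9 CPM in control section 2, and of 31.4 and 37.6 CPM in vehicle-treated tubules on day 14. Their median cortex to medulla difference was -1.10. For the 55 probes under 2-fold it was -0.19, and their medians were 85.8 and 64.4 CPM in the controls and 32.5 and 28.3 CPM with vehicle on day 14. The probes whose control sections stood furthest apart thus leaned most to the medulla, and control section 1 enters both values.

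When control section 1 was left out, 42 of the 100 probes still lay at least 0.75 below control on day 14, their median difference was -0.64, and 32 still met the whole rule. Without control section 2 the median was -1.64, and 97 met the rule. The median over all probes was -0.22 and 0.15 in these comparisons, against -0.06 with both. Compared within section numbers, the difference was below 0 for 100 of the 100 probes in section 1, with a median of -1.65, and for 90 of the 100 in section 2, with a median of -0.65. The size of the day 14 difference thus rested on control section 1 for most of the 100 probes.

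**Figure D3:**
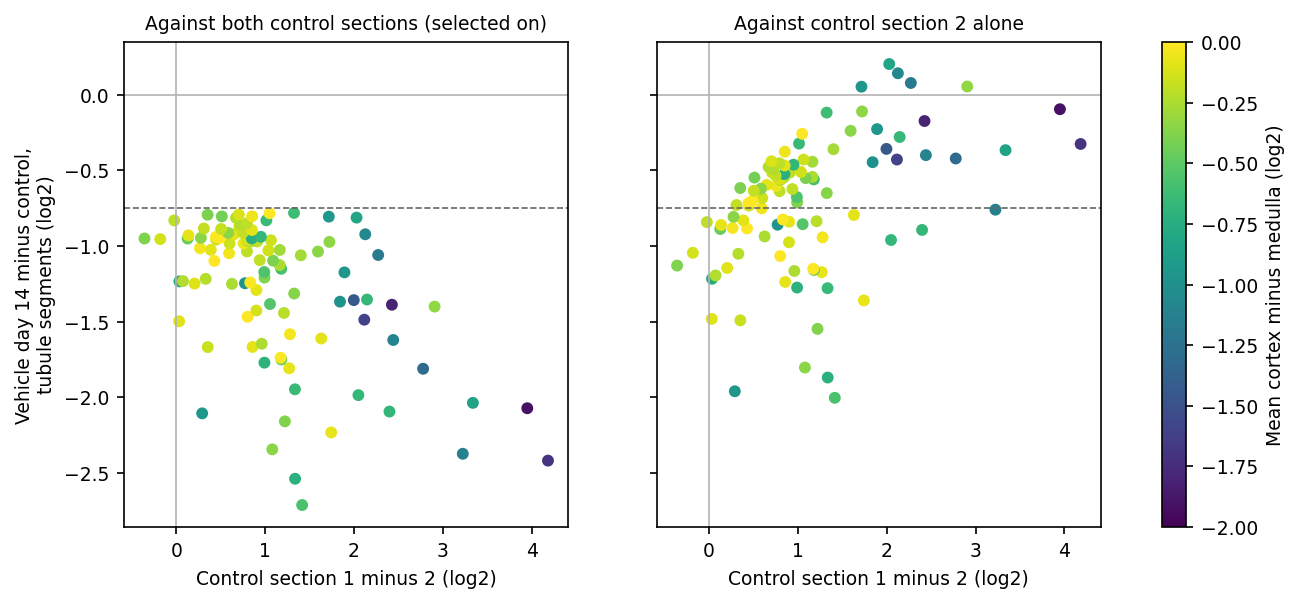
Each point is 1 of the 100 probes in tubule segments. The horizontal axis gives control section 1 minus control section 2 and the vertical axis the mean of the vehicle-treated sections on day 14 minus control, both as differences of log2(CPM + 1), with both control sections (left) and control section 2 alone (right). Color gives the mean cortex minus medulla difference, and the dashed line marks the selection limit of -0.75. All 100 points lie below the line on the left and 42 of them on the right.

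On day 14 the difference of vehicle from control was larger in the medulla than in the cortex in section 1. In section 2 it was of similar size in both regions, with medians of 74.4 and 40.5 CPM in the medulla and 64.7 and 34.4 CPM in the cortex. The control sections and the difference between the regions both helped choose the probes, so this is a description. The medulla of a section was 1 tubular segment in the controls and on days 1 and 7, and 2 segments on day 14. In the medulla of control tubules the median of the 100 probes was 247 CPM in section 1 and 74.4 CPM in section 2, and in the cortex it was 69.2 and 64.7 CPM. In the medulla of vehicle-treated tubules it was 47.5 and 32.4 CPM on day 1, 50.2 and 56.5 CPM on day 7, and 32.6 and 40.5 CPM on day 14. In the cortex it was 45.03 and 34.4 CPM on day 14. The control sections were close to each other in the cortex, and the vehicle-treated sections on day 14 lay below both controls in either region.

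From vehicle-treated and control sections, the median day 14 difference was -1.54 in the medulla alone, where 98 of the 100 probes were at or below -0.75, and -0.59 in the cortex alone, where 38 were. The medulla alone put the lowest day at day 14 for 63 of the 100, since the difference on day 1 was nearly as large there, with a median of -1.43 against -0.95 on day 7. The share of a section's tubular counts that came from the medulla was 51.3% and 37.3% in the controls, 18.7% and 11.5% with vehicle on day 1, 38.7% and 30.4% on day 7, and 49.2% and 63.5% on day 14, so that sums over both regions weighed the medulla least on day 1. With equal weight for the regions of a section, 76 of the 100 probes met the rule.

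The lean toward the medulla was not shared by all groups. The mean difference between cortex and medulla over the 14 sections, which also chose the probes, had a median of -0.25 and a lowest value of -1.91. It was at or below -1 for 10 probes, between -1 and -0.5 for 22, and above -0.5 for 68. In control section 1 the median of the 100 probes was -1.52, with 94 below 0, and in control section 2 it was -0.14, with 86 below 0. In the vehicle-treated sections it was 0.31 and 0.60 on day 1, 0.02 and -0.17 on day 7, and 0.33 and -0.15 on day 14. With entospletinib it was -0.61 and 0.02 on day 1, -1.27 and -0.34 on day 7, and -1.29 and -0.79 on day 14. Most of the lean came from control section 1 and the later entospletinib sections, and on day 1 only 34 and 21 of the 100 probes were lower in the cortex of vehicle-treated tubules.

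The 5 probes with the strongest lean were RTS0071079, RTS0076636, RTS0063849, RTS0076643, and RTS0076888. In control section 1 RTS0071079 had 87.5 CPM in the cortex and 2370 CPM in the medulla, and in control section 2 it had 70.0 and 98.1 CPM. In vehicle-treated tubules on day 14 it had 54.4 CPM in the cortex and 40.4 CPM in the medulla of section 1, and 76.3 and 143 CPM in section 2. In entospletinib tubules on day 14 the medulla had 1574 CPM in section 1 and 859 CPM in section 2. The cortex of this probe stayed between 54.4 and 176 CPM in all 14 sections.

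RTS0076888 had 1396 and 261 CPM in the medulla of the control sections, 1112 and 95.5 CPM with vehicle on day 1, 122 and 186 CPM with vehicle on day 14, and 1253 and 738 CPM with entospletinib on day 14. RTS0076636 had 366 and 42.0 CPM in the control medulla, 33.9 and 46.9 CPM with vehicle on day 14, and 433 and 273 CPM with entospletinib on day 14. RTS0076643 had 339 and 52.2 CPM, 32.4 and 39.8 CPM, and 499 and 340 CPM in the same order. For each of these 3 probes the entospletinib medulla on day 14 was above the vehicle-treated medulla in both sections.

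**Figure D4:**
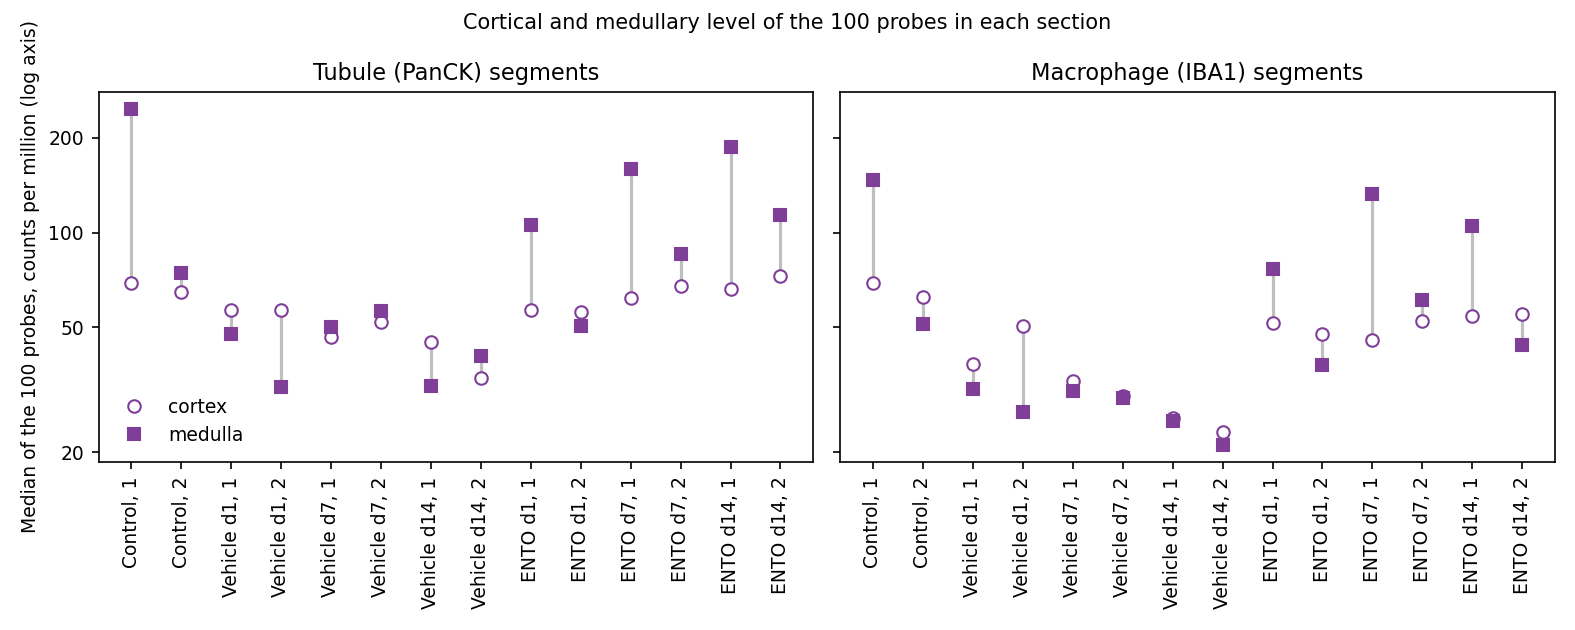
Median of the 100 probes in the cortex (open circles) and the medulla (filled squares) of each section, in CPM on a log axis, for tubule segments (left) and macrophage segments (right). Gray lines join the regions of a section. In tubules the cortical medians lie between 34.4 and 72.7 CPM, while the medullary medians run from 32.4 to 247 CPM.

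The difference between the regions of entospletinib-treated tubules entered the mean over 14 sections that helped choose the probes, and with those 6 sections left out of it 58 of the 100 met the rule. The change of these tubules over time is therefore not independent of the selection, and it is given as a description with nothing read from it. From day 1 to day 14 the edgeR log2 fold change was above 0 for 89 of the 100 probes, with a median of 0.89 against 0.03 over all probes. In edgeR's quasi-likelihood test 1 of the 100 passed (adjusted p under 0.05 and more than 2-fold) as higher and 0 as lower, where 0.0347% and 0.248% of all probes passed. With the section number as a replicate block, 3 of the 100 passed. The 1 probe was RTS0065768, with 46.6 and 29.4 CPM on day 1 and 113 and 120 CPM on day 14 (log2 fold change 1.73, SE 0.33). Its call was lost with TMM scaling, in either region alone, and without section 2 of day 1 or either section of day 14. Both sections of day 14 lay above both of day 1 for 55 of the 100 probes, and for 7.51% of all probes. Within section numbers the median change was 0.66 in section 1 and 0.76 in section 2. By region, on log2(CPM + 1), it was 0.18 in the cortex, with 72 probes above 0, and 0.98 in the medulla, with 89 above 0.

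From day 1 to day 7 under entospletinib the median log2 fold change was 0.50, with 81 of the 100 probes above 0. By edgeR 0 of the 100 passed in either direction, where 0.00991% of all probes passed as higher and 0.233% as lower. An unadjusted p under 0.05 was reached by 17, and DESeq2 called 0. RTS0065768 stood at 83.6 and 98.7 CPM on day 7, above both sections of day 1.

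Entospletinib and vehicle on day 14 cannot be tested here, because the vehicle-treated sections chose the probes. Side by side, the entospletinib sections were both above the vehicle-treated sections for 84 of the 100 probes, and 11.0% of all probes did the same. Against control, the entospletinib difference on day 14 had a median of 0.19, with 68 probes above 0, and 48.9% of all probes were above 0. The direction turned with the section, since the median was -0.10 in section 1, with 56 of the 100 below 0, and 0.55 in section 2, with 68 above 0. The vehicle-treated difference, with its median of -1.10, shares the control sections. Both entospletinib sections were above both controls for 13 of the 100 probes and below both for 7, where all probes gave 4.17% and 10.3%.

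Macrophage segments were not used by the rule, but they came from the same sections and regions as the tubules that were. For the 100 probes control section 1 was above control section 2 in both kinds of segment, by a median of 1.01 here and 0.95 in tubules. Comparisons of macrophage segments in these sections are therefore not independent of the selection. Their calls and adjusted p are given as a description. Macrophages of the kidney lie in the space between tubules. In these segments the 100 probes had medians of 113 and 55.4 CPM in the controls, 37.5 and 43.1 CPM with vehicle on day 1, 34.4 and 28.9 CPM on day 7, and 26.5 and 22.5 CPM on day 14. With entospletinib the medians were 63.2 and 44.5 CPM on day 1, 71.8 and 59.5 CPM on day 7, and 93.9 and 49.9 CPM on day 14. As in tubules, control section 1 had the highest median and the vehicle-treated sections on day 14 the lowest. On day 14 with vehicle the 100 probes stood at the median of all probes, which was 26.7 and 21.2 CPM in those sections.

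Between vehicle-treated macrophage segments on day 14 and control, the log2 fold change was below 0 for 98 of the 100 probes, with a median of -1.54 against -0.08 over all probes. By edgeR 37 of the 100 passed as lower and 0 as higher, where 3.39% and 3.55% of the 18541 probes tested passed. These shares are not matched for abundance. Both vehicle-treated sections lay below both controls for 89 of the 100, where 26.3% of all probes did so. Without control section 1 the number that passed was 9, all of them among the 37, and the median was -0.85. The spread tested is that between 2 sections of a group, which the labels do not state in words to be 2 mice. Macrophage sums held 159453 and 298063 counts in the controls and 2773456 and 2024256 with vehicle on day 14. The part of this depth difference and of tubular RNA in the calls was not tested.

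RTS0067211, RTS0068299, and RTS0062877 had the smallest adjusted p. RTS0067211 had 590 and 282 CPM in the control sections and 59.1 and 79.5 CPM with vehicle on day 14 (log2 fold change -2.56, SE 0.35, adjusted p = 1.46e-05). RTS0068299 had 314 and 161 CPM in the controls and 33.2 and 46.4 CPM with vehicle on day 14 (log2 fold change -2.47, SE 0.36, adjusted p = 2.82e-05). RTS0062877 had 176 and 57.0 CPM in the controls and 12.3 and 16.8 CPM with vehicle on day 14 (log2 fold change -2.78, SE 0.42, adjusted p = 4.87e-05). The groups did not overlap for any of the 3. For RTS0062877 the vehicle-treated sections were below the median of all probes, 26.7 and 21.2 CPM there, so the size of its fall is uncertain. In tubules the same probes had 910 and 487 CPM, 306 and 202 CPM, and 227 and 96.8 CPM in the controls.

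Between entospletinib- and vehicle-treated macrophage segments on day 14, the log2 fold change was above 0 for 98 of the 100 probes, with a median of 1.34 against 0.07 over all probes. By edgeR 33 of the 100 passed as higher and 0 as lower, where 2.52% and 1.55% of the 18541 probes tested passed. Both entospletinib sections lay above both vehicle-treated sections for 75 of the 100, where 23.3% of all probes did so. Without entospletinib section 1 the number that passed was 18, of which 17 were among the 33, and the median was 0.73. Without vehicle-treated section 2 it was 20. This comparison shares the vehicle-treated sections with the comparison against control. Macrophage sums held 538072 and 591370 counts with entospletinib on day 14, against 2773456 and 2024256 with vehicle. The part of depth and of tubular RNA in these calls was not tested.

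RTS0076644 had 24.5 and 15.3 CPM with vehicle and 81.8 and 87.9 CPM with entospletinib in macrophage segments on day 14 (log2 fold change 2.05, SE 0.28, adjusted p = 2.65e-06). RTS0062877 had 12.3 and 16.8 CPM with vehicle and 94.8 and 94.7 CPM with entospletinib (log2 fold change 2.71, SE 0.34, adjusted p = 5.29e-06). RTS0067211 had 59.1 and 79.5 CPM with vehicle and 506 and 413 CPM with entospletinib (log2 fold change 2.72, SE 0.34, adjusted p = 5.75e-06). The sections of a group were close for these probes, and the entospletinib sections were above the vehicle-treated sections in each case. For RTS0076644 and RTS0062877 the vehicle-treated sections were below the median of all probes, 26.7 and 21.2 CPM there. Background was not removed, so the size of these 2 differences is uncertain.

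**Figure D5:**
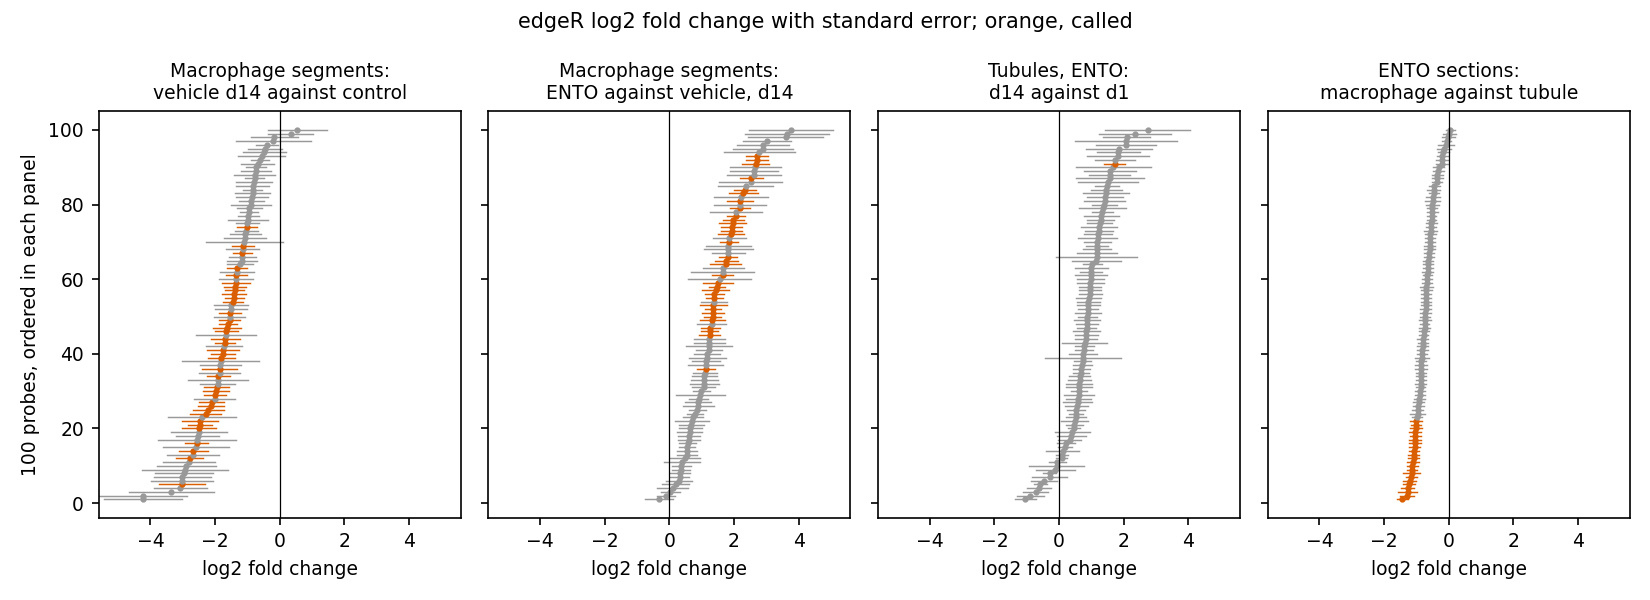
edgeR log2 fold change (horizontal axis) of the 100 probes, ordered by it in each panel, with bars of 1 standard error. Orange points passed the test (adjusted p under 0.05 and more than 2-fold) and gray points did not. From left to right 37, 33, 1, and 22 probes passed.

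Within the 6 entospletinib sections the 100 probes were lower in macrophage segments than in tubules. The log2 fold change, fitted with the section in the model, was below 0 for 98 of the 100 probes, with a median of -0.73 against -0.09 over all probes. By edgeR 22 of the 100 passed as lower in macrophage segments and 0 as higher, where 0.322% and 1.63% of all probes passed. A level lower in the macrophage segment in each of the 6 sections was found for 56 of the 100 probes, and for 5.13% of all probes. The number that passed was 34 in the medulla alone, 1 in the cortex alone, and 6 without entospletinib section 2 on day 14. The tubules of these sections helped choose the probes through the difference between their regions, so that the tubular side of this comparison is not independent of the rule. The calls and the values of the probes named next are therefore given as a description.

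RTS0076888 had 253, 228, 271, 127, 387, and 105 CPM in macrophage segments of the entospletinib sections, by day and section, and 543, 489, 623, 285, 819, and 482 CPM in tubules (log2 fold change -1.43, SE 0.18). RTS0061483 had 24.7 to 61.5 CPM in macrophage segments and 40.4 to 139 CPM in tubules (log2 fold change -1.13, SE 0.16). RTS0076937 had 59.5 to 177 CPM in macrophage segments and 102 to 381 CPM in tubules (log2 fold change -1.12, SE 0.16). The medians of the 100 probes in these macrophage segments, 44.5 to 93.9 CPM, were above those of all probes, 22.3 to 27.9 CPM. The part of tubular RNA in them was not tested.

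Between medulla and cortex of macrophage segments 56 of the 100 probes had enough counts to be tested, and 44 did not. By edgeR 1 passed as higher in the medulla and 0 as lower, where 0.182% and 1.09% of the 7127 probes tested passed. The probe was RTS0071079, which was higher in the medulla in 13 of 14 sections, with a lowest, median, and highest level of 28.6, 143, and 1534 CPM in the medulla and of 24.5, 59.0, and 157 CPM in the cortex (log2 fold change 1.54, SE 0.40, adjusted p = 0.0328). Its call was lost with no filter on low counts, without section 1 of vehicle on day 1, without section 1 of entospletinib on day 1, and without either entospletinib section on day 14. RTS0067139 had a smaller adjusted p, 0.0068, at a log2 fold change of 0.85, under the 2-fold limit. Tubules of these same regions chose the probes for a lean to the medulla, and RTS0071079 had the strongest lean there, -1.91. This comparison is therefore not independent of the rule and is given as a description.

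By section, the median difference between cortex and medulla in macrophage segments was -1.35 and 0.20 in the controls, between -0.05 and 0.92 in the vehicle-treated sections, and -0.45 and 0.34 on day 1, -1.25 and 0 on day 7, and -1.05 and -0.08 on day 14 with entospletinib. Section 1 of the control and of each entospletinib group leaned to the medulla, as in tubules, and section 2 did so little or not at all.

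The change of the 100 probes from day 1 to day 14 in macrophage segments was then compared between the treatments. The log2 difference of the changes, entospletinib minus vehicle, was above 0 for 92 of the 100 probes, with a median of 0.96 against 0.02 over all probes. By edgeR 0 of the 100 passed in either direction, where 0% of the 18541 probes tested passed as higher and 0.00539% as lower. An unadjusted p under 0.05 was reached by 26 of the 100, and DESeq2 called 1.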

How the data were processed

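Tubule (PanCK) and macrophage (IBA1) segments of 14 kidney sections were profiled, 94 segments in all, 48 and 46 of each kind. The authors deposited whole counts of unique molecular identifiers per probe, which the GeoMx NGS Pipeline (3.1.1.5 per the file headers) had produced, before background steps, filtering and normalization. A second tubular segment of 2 regions entered the sum of its section. The 2 samples excluded as outliers by the study are not named there, so none was left out. No table at hand pairs probes with genes, so no gene list, marker or sequence was used.

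Counts were summed per section and stain, and the rule was computed on log2(CPM + 1). Tests used edgeR 4.0.16 in R 4.3.3 (upper quartile scaling, filterByExpr with a minimum count of 10 and a minimum total of 15, robust quasi-likelihood test) over all probes, with Benjamini-Hochberg adjustment. Calls needed more than a 2-fold change besides an adjusted p under 0.05. For edgeR results, shares and medians over all probes are over the probes that the filter kept. These were 18541 for groups of macrophage segments, 7127 for their regions and 20175 otherwise. The standard error is the size of the log2 fold change over the root of F. The 14 sums of a stain shared a single estimate of the spread, medulla against cortex and macrophage against tubule had the section in the model, and a group with 1 section left was assumed to vary like the others. The labels do not pair sections by prefix. In tubules, differences between sections 1 and 2 correlated across probes between the 6 injured groups at 0.19 to 0.74, all 15 pairs above 0.1. With the control they correlated at -0.57 to -0.12. Changes in tubules are therefore also described within section numbers. The main tests of tubules did not include the prefix, and a block by prefix was an alternative. The tests, apart from the difference between treatments of the change over time, were tested on simulated counts. The simulation gave every probe the same spread and no difference between the sections of a group. It therefore does not show how the tests behave with sections as far apart as the control sections. The members, lists and tests were chosen with earlier results of these data known.

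Probes are named by a rule: the 10 with the lowest day 14 difference, the 5 with the lowest cortex to medulla difference, up to 3 called in each direction of each test with the smallest adjusted p, and those next to the limit. RTS0078255, RTS0067139, and RTS0065768 on day 7 were named after their values were seen. Alternatives were TMM, DESeq2 1.42.0, no filter, a block by prefix or none, single regions, regions as replicates, other sections, and leaving out each section. The difference between treatments, control section 1 out of the shared fit, single regions in the rule, and entospletinib sections out of its regional mean were added after seeing the data.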

Additional observations from a re-analysis of the deposited data

Results flagged for a closer look

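The change of the 100 probes from day 1 to day 14 went in opposite directions under vehicle and entospletinib when the regions of a section were summed, in both kinds of segment and in both section numbers. In tubules the median change was -0.49 and -0.51 on the log2 scale in sections 1 and 2 with vehicle, and 0.66 and 0.76 with entospletinib. The fall of the vehicle-treated mean in tubules was fixed by the rule, which kept only probes lower on day 14 than on day 1. In the medulla of tubules alone the direction was not shared by both vehicle-treated sections, where the median change was -0.49 in section 1 and 0.22 in section 2, against 0.85 and 1.103 with entospletinib. In the cortex alone it was -0.31 and -0.64 with vehicle and 0.21 and 0.30 with entospletinib. The medulla gave 18.7% and 11.5% of the vehicle-treated tubular counts on day 1 and 49.2% and 63.5% on day 14. Over the summed regions the median difference between the treatments was 1.22, and it was not tested, because the vehicle-treated tubules chose the probes. In macrophage segments the median change was -0.48 and -0.73 with vehicle and 0.54 and 0.16 with entospletinib, while in the cortex alone it was below 0 under both treatments, at -0.52 and -1.04 with vehicle and -0.04 and -0.12 with entospletinib. Over the summed regions of macrophage segments the median difference between the treatments was 0.94 on log2(CPM + 1). In the edgeR test of these sums the smallest adjusted p of the 100 was 0.0532 (RTS0067211), so that none passed. By an unadjusted p under 0.05 the count was 26, and DESeq2 called 1.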

How the results depend on the processing

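The number of the 100 probes called is given here in the order of the comparisons. For entospletinib tubules on day 14 against day 1, where 1 was called, TMM gave 0, DESeq2 3, the cortex alone 0, the medulla alone 0, single regions as replicates with DESeq2 28, and leaving out control section 1 from the shared fit 3. For day 7 against day 1, where 0 were called, regions as replicates gave 6, and leaving out control section 1 gave 1. For vehicle-treated macrophage segments on day 14 against control, with 37 called, the cortex alone gave 18, the medulla alone 22, and regions as replicates 58. For entospletinib against vehicle, with 33 called, the medulla alone gave 20 and regions as replicates 55. For medulla against cortex in macrophage segments, with 1 called, DESeq2 gave 5 and no filter 2. For macrophage against tubule segments, with 22 called, TMM gave 14, DESeq2 9, the cortex alone 1, and the medulla alone 34. The rule was met by 35 of the 100 probes with the cortex alone, by 62 with the medulla alone, and by 58 with the entospletinib sections out of the mean difference between the regions. Leaving out, in turn, each section of the groups compared gave, in the same order, 0 to 2, 0 to 1, 9 to 49, 18 to 41, 0 to 1, and 6 to 26 called, and 32 to 97 probes that met the rule. Wherever calls were made both here and in the comparison as first fitted, most of them had the same direction. The cause of these differences was not tested.

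With the prefix as a replicate block, the day 14 against day 1 comparison of tubules gave 3 calls, and the block gave 47 and 45 in the comparisons of macrophage segments with control and with vehicle. Without the section as a block, macrophage against tubule segments gave 13. In macrophage segments the numbers were not taken as pairs, since 7 of 21 pairs of groups correlated above 0.1. The prefix block changed no call count by more than 1.5 times apart from the tubules on day 14.

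Depth limited the macrophage segments, where 6 of the 100 probes had 0 counts in some section. With 2 sections per group, a single section moved the count of calls by more than 1.5 times in each of these 6 comparisons, and it moved the difference between treatments in macrophage segments from 0 to as many as 3 calls. For the named probes, 121 of 138 repeats kept the call and the direction and 17 lost the call. Upper quartile scaling moved the day 14 median over all probes from -0.06 to -0.27, and the median of the 100 probes from -1.10 to -1.32.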
